A study of Arabidopsis thaliana with 6 samples.

Results

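The plastid-encoded transcripts are the RNAs of the chloroplast's own genome, taken here as all loci whose identifier starts with ATCG, which gave 133 of the 33602 loci in each of 2 deposited tables. The tables compare whole seedlings of Arabidopsis thaliana, ecotype Col, of the wild type (WT) and of the genotype labelled bbx4-1, after BBX4, a gene for a transcription factor with B-box zinc fingers. Growth of both genotypes lasted 4 days under constant red light in a chamber at 22 °C, and no other allele or agent is named in the labels. The 3 replicates of a genotype were merged by the authors into 1 column of FPKM, a fragment count scaled by transcript length and by the size of the library, and the libraries were made after poly(A) enrichment. Whether they were merged before or after sequencing is not stated in the labels. With 1 column per genotype there is no replicate spread, no test and no p-value, and every interval of an FPKM ratio below covers counting error only. The order-statistic interval given at the end for the plastid median covers spread among loci, which are not replicates.

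The plastid genome of land plants is a remnant of a cyanobacterial chromosome and encodes the core subunits of the photosynthetic complexes together with part of the plastid's own machinery for transcription and translation. Its genes are read by a bacterial-type RNA polymerase, whose core is plastid-encoded and whose sigma factors come from the nucleus, and by a nuclear-encoded phage-type polymerase. Photosynthesis genes are read mainly by the former, whereas the rpoB unit and accD are read by the latter. Most plastid RNAs are cut from polycistronic precursors. They carry no lasting poly(A) tail, and a short tail marks a plastid RNA for decay, so the values below are levels of the plastid RNA that came through poly(A) enrichment, and total plastid RNA was not measured.

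The tables give locus identifiers without gene names. The TAIR10.1 annotation ties 7 of the 133 identifiers to a product or a pseudogene sequence, and the symbols used here for all 133 follow the general locus nomenclature of the species. For 121 entries of the annotation that carry a symbol, that symbol and the one used here were the same in genome order, and 6 further entries carried only a matching RNA type. The 7 ties fitted the symbols used, if the annotation's photosystem II protein G is read as the older name of ndhK. Coordinates are those of TAIR10.1 (the authors' notes name TAIR10). The genome is 154478 bp long and has a large and a small single-copy region separated by an inverted repeat in 2 copies.

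The column labelled bbx4-1 did not show a loss of BBX4 transcript. BBX4 stood at 88.97 FPKM in the WT column and 1095.7 FPKM in the other, 12.3-fold higher, and higher or lower below always describes the column with the bbx4-1 label, called the bbx4-1 column, relative to the WT column. WT and bbx4-1 are used below as the names of these columns. Whether the columns were exchanged was not tested, and an exchange would turn every direction given here. Of the marker genes for green tissue, RBCS1A stood at 17575 and 17123 FPKM and LHCB1.3 at 11034 and 11237 FPKM. The root markers SCR (14.99 and 17.55 FPKM) and COBL9 (2.07 and 2.04 FPKM) were present. Of the seed store markers, OLEO1 stood at 2.21 and 1.82 FPKM and SESA3 at 0.03 in both. The flower markers AP1 (0 in both) and AG (0.03 and 0 FPKM) were at or near 0. Depth was estimated at about 48.1 M fragments for the WT column and 49.8 M for the other, from transfer RNA genes with a single fragment. In whole seedlings, fewer green cells and less plastid RNA per cell cannot be told apart.

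All 133 plastid loci were above 0 in both columns. Together they held 9.63% of all FPKM in the WT column and 8.75% in the bbx4-1 column. Counted as fragments, that is FPKM times annotated length, the shares were 3.59% and 2.81%, because short plastid loci weigh heavily in a sum of FPKM. The median level was 90.95 FPKM in WT and 67.38 FPKM in bbx4-1, against 9.81 and 10.1 FPKM for nuclear loci with a mean of at least 1 FPKM.

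Levels spanned a wide range and were headed by small genes. psbM (ATCG00220), a low-molecular-weight subunit of photosystem II, stood at 12388.38 FPKM in WT and 12727.39 FPKM in bbx4-1. rpl32 (ATCG01020), a protein of the large ribosomal subunit, stood at 12203.21 and 13426.42 FPKM. These 2 loci made up 32.3% of all plastid FPKM in WT and 37.7% in bbx4-1, but 7.56% and 10.3% of plastid fragments. By contrast, psbA (ATCG00020), which encodes the D1 protein of the photosystem II reaction centre, stood at only 224.7 and 114.2 FPKM, and rbcL (ATCG00490), the large subunit of the carbon-fixing enzyme Rubisco, at 419.1 and 222.26 FPKM. Both are known as abundant plastid mRNAs, and together they held 0.846% of plastid FPKM in WT and 0.485% in bbx4-1.

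The coding sequences of psbM (Pltd:28707-28811, minus strand, 105 bases) and rpl32 (Pltd:113449-113607, plus strand, 159 bases) are shown because these loci lead the levels in poly(A)-enriched RNA. Both are read from RefSeq, TAIR10.1, in the sense direction, with runs of 5 or more A in capitals.

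psbM: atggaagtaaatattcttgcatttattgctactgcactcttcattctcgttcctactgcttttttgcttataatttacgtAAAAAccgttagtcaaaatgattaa

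rpl32: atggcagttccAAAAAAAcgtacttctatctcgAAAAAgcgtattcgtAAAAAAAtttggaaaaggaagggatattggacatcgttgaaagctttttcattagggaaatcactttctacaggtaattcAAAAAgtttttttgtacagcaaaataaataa

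rpl32 has 4 such runs in its coding sequence, the longest of 7 A, and 39.6% of its bases are A. psbM has 1 run of 5 A, and a run of 13 A lies behind its stop codon. Within 200 bases behind the gene, 4 loci had a run of 13 A, the longest found there. These are psbM, ndhC, trnS (ATCG00090) and trnP, and the 30 bases around each run are shown with the run in capitals (Pltd:28664-28693, Pltd:49950-49979 and Pltd:66299-66328 on the minus strand, Pltd:7897-7926 on the plus strand).

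psbM: ttactatcAAAAAAAAAAAAAgatttcaat

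ndhC: acaataatAAAAAAAAAAAAAgtaaaaaaa

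trnS: ggttccatAAAAAAAAAAAAAggcttgaaa

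trnP: ttttttagAAAAAAAAAAAAAgaaaaacgc

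Of these 4, psbM, trnS (348.28 and 357.55 FPKM) and trnP (412.07 and 422.21 FPKM) were slightly higher in the bbx4-1 column, and ndhC (484.57 and 398.21 FPKM) was lower. The counting intervals of the FPKM ratio held 1 for trnS (0.956 to 1.10) and trnP (0.954 to 1.10), and left it out for psbM (1.02 to 1.04) and ndhC (0.796 to 0.848). Of 127 loci with an annotation entry, the 10 with a run of 10 or more A behind the gene had a median of 178.2 FPKM in WT, the 37 with a run of 7 to 9 A had 232.3 FPKM, and the 80 with shorter runs had 88.0 FPKM. By the longest run in the gene or behind it, the 21 loci with 10 or more A had a median of 232.3 FPKM in WT, the 46 with 7 to 9 A had 136.6 FPKM and the 60 with shorter runs 79.1 FPKM. Across loci the link was weak. Spearman's rho of the mean FPKM with this longest run was 0.18 over the 127 loci and 0.03 over the 83 protein-coding ones. With the run behind the gene it was 0.17 and 0.23. The search windows were chosen with the values known, and the part of the poly(A) enrichment in these levels was not tested.

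**Figure D1:**
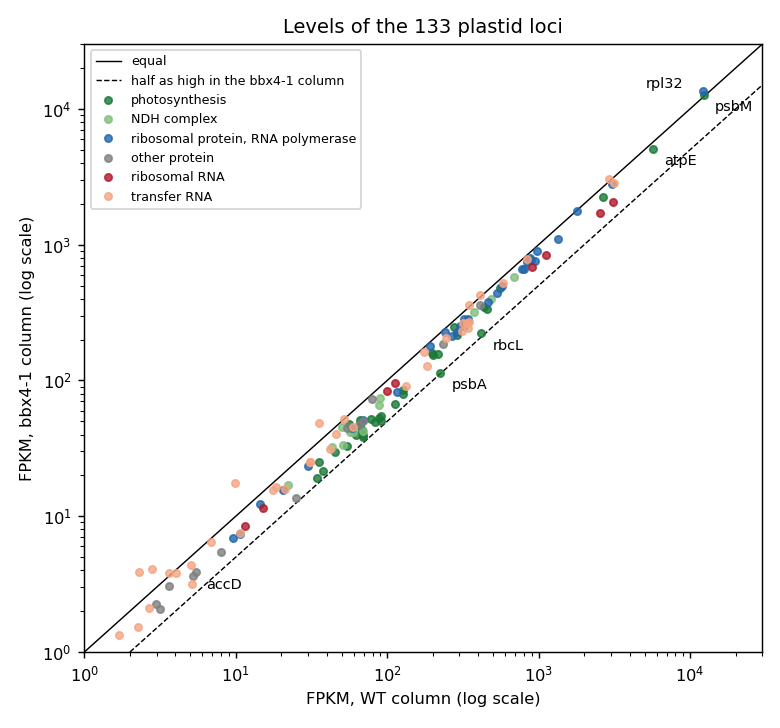
FPKM of each plastid locus in the WT column (x axis, log scale) and the bbx4-1 column (y axis, log scale), 1 point per locus, coloured by product group. Most points lie just under the line of equal values, with psbM and rpl32 at the top on it and psbA and rbcL closest to the dashed line of a value 2-fold lower among loci above 100 FPKM.

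The log2 ratio used below is log2(FPKM + 1) of bbx4-1 minus that of WT, which understates the difference of low loci. By this measure, 83 of the 133 plastid loci were lower by at least 1.2-fold and 4 were higher by as much. Among all 18931 loci with a mean of at least 1 FPKM, 4.11% were lower and 5.15% were higher by that fold. By at least 1.5-fold, 20 plastid loci were lower and 1, trnG (ATCG00310), was higher, against 0.555% and 0.565% of all loci, and none passed 2-fold (0.0423% of all loci were lower and 0.106% higher by that fold). Of the 128 plastid loci with an annotated length, 97 were lower by more than their 95% counting interval and 5 were higher, against 12.6% and 23.8% of all loci with a length. These rates are not alike in sensitivity, because the interval narrows with more fragments. The median level in WT was 90.95 FPKM for plastid loci and 9.87 FPKM for all loci with a mean of at least 1 FPKM. The 5 higher ones were psbM, rpl32, trnG (ATCG00310), trnfM and trnL (ATCG00400). The intervals of psbM (1.016 to 1.039) and trnL (1.008 to 1.06) began close to 1. The rescalings given at the end multiply the bbx4-1 column by 0.9777 to 0.9869, and the calls by counting interval were not repeated after them. The differences of the plastid loci were thus under 2-fold, mostly in the same direction, and larger than counting error at most loci. Below 0 were 122 plastid loci and above 0 were 11, against 40.4% and 59.1% of all loci. The median was −0.34 with and without the second copy of the inverted repeat.

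**Figure D2:**
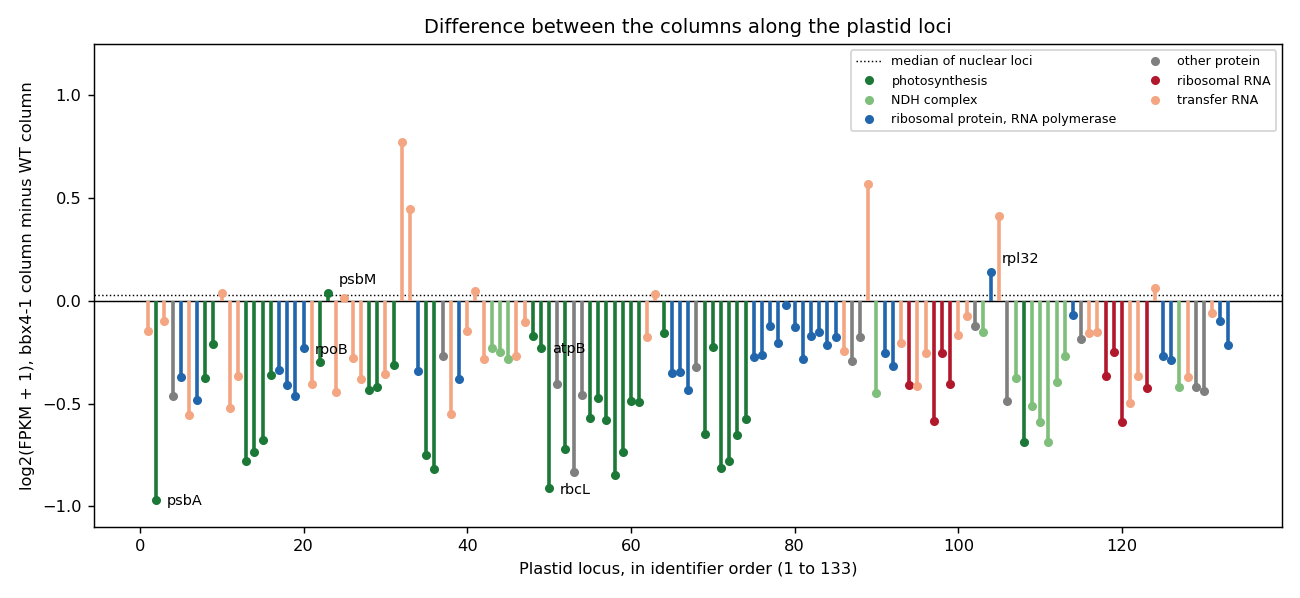
Difference in log2(FPKM + 1), bbx4-1 column minus WT column (y axis), for the 133 plastid loci in identifier order (x axis), 1 bar per locus, coloured by product group. Bars of photosynthesis genes reach from 0.04 (psbM) to −0.97 (psbA), and 11 loci, 9 of them transfer RNA genes, lie above 0.

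The size of the difference varied by product. The 33 genes for photosystem I, photosystem II, the cytochrome b6f complex, ATP synthase and Rubisco had a median log2 ratio of −0.58, and 15 of them were lower by at least 1.5-fold. The 30 loci for ribosomal proteins and RNA polymerase had a median of −0.27, and none of them was lower by that fold. The 12 loci of the NDH complex lay between, with a median of −0.39 and 2 lower by 1.5-fold. The ranges of the groups overlapped, and no test of the difference between them could be made.

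**Figure D3:**
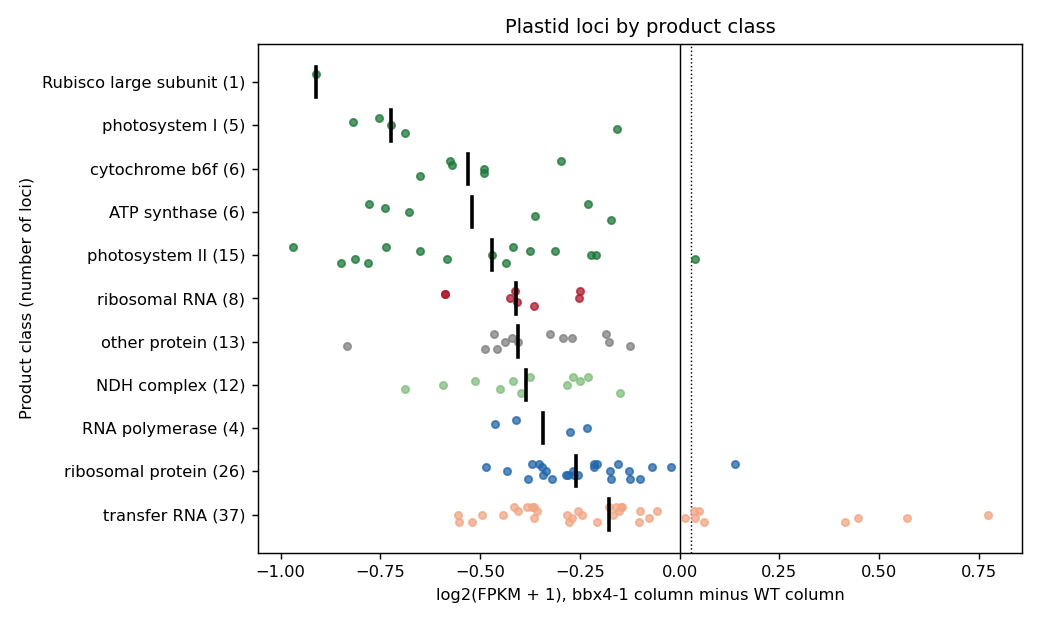
Difference in log2(FPKM + 1), bbx4-1 column minus WT column (x axis), for the loci of 11 product classes (y axis, number of loci in brackets), with 1 point per locus and a bar at the class median. The dotted line is the median of nuclear loci (0.029). All class medians are below 0, from −0.18 for transfer RNA to −0.91 for Rubisco.

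Among photosystem II genes, psbA had the lowest log2 ratio of all plastid loci, −0.97, with an FPKM ratio of 0.508 (95% counting interval 0.493 to 0.524). The others are given by role. The genes of the reaction centre and core antenna, psbD (D2 protein, 452.75 to 334.38 FPKM), psbC (CP43, 290.14 to 216.83 FPKM) and psbB (CP47, 62.67 to 39.58 FPKM), were at −0.44, −0.42 and −0.65. The cytochrome b559 genes psbE (112.98 to 67.38 FPKM) and psbF (91.47 to 50.37 FPKM) were at −0.74 and −0.85. Leaving aside psbN, given below with the psbB unit, small subunits ranged most widely, from psbH at −0.78 (68.74 to 39.59 FPKM) to psbM at 0.039. psbI was at −0.21 (553.83 to 478.43 FPKM), and psbM was the only one of the 15 photosystem II loci above 0.

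Of the 5 photosystem I genes, 4 were lower by at least 1.5-fold. psaA (68.79 to 38.59 FPKM) and psaB (83.59 to 49.21 FPKM), which encode the reaction centre pair, were at −0.82 and −0.75. psaC, the iron-sulfur subunit, was at −0.69 (54.05 to 33.18 FPKM) and psaI at −0.72 (90.95 to 54.72 FPKM). The exception was psaJ, a small membrane subunit, at −0.16 (276.28 to 247.68 FPKM). ycf4, which is needed for photosystem I assembly, was at −0.83 (24.91 to 13.53 FPKM), whereas ycf3, another assembly factor, was at −0.27 (54.46 to 44.96 FPKM).

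The cytochrome b6f genes were all lower by at least 1.2-fold, 6 of 6. petB, for cytochrome b6, was the lowest at −0.65 (68.68 to 43.34 FPKM), petA, for cytochrome f, was at −0.57 (44.98 to 29.97 FPKM), and petN, a small subunit, was at −0.30 (196.71 to 159.98 FPKM). The 6 ATP synthase genes formed 2 sets of different level. atpA, atpF and atpH were between −0.78 and −0.68, with WT levels of 37.81, 88.25 and 127.0 FPKM, and atpI was at −0.36 (66.62 to 51.58 FPKM). atpB (2647.83 to 2258.0 FPKM) and atpE (5679.03 to 5039.5 FPKM), which lie elsewhere in the genome, were far higher in level and were at −0.23 and −0.17. rbcL, which neighbours atpB and is read in the other direction, was at −0.91, with an FPKM ratio of 0.530 (0.520 to 0.541).

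The NDH complex carries electrons from ferredoxin to plastoquinone. Its genes ranged from ndhI at −0.69 (68.7 to 42.22 FPKM) to ndhF at −0.15 (50.32 to 45.25 FPKM), and ndhK had the highest level (687.31 to 577.8 FPKM, −0.25). All 12 were below 0.

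Genes of the plastid's expression machinery are given next. The class medians were −0.26 for ribosomal proteins, −0.34 for RNA polymerase and −0.41 for ribosomal RNA. Of 26 ribosomal protein loci, 13 were lower by at least 1.2-fold and 25 were below 0. rpl16 (3061.84 to 2804.83 FPKM) and rpl14 (1780.74 to 1754.27 FPKM), proteins of the large subunit, were at −0.13 and −0.022. The lowest was the locus of the 5′ part of the trans-spliced gene rps12, at −0.49 (116.02 to 82.59 FPKM), while its 3′ parts were at −0.32 (947.95 to 759.66 FPKM) and −0.27 (801.82 to 666.16 FPKM). rpl32 was the only one above 0, at 0.14, with an FPKM ratio of 1.10 (1.09 to 1.11).

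The RNA polymerase genes rpoB (14.56 to 12.25 FPKM), rpoC1 (10.67 to 7.46 FPKM) and rpoC2 (9.56 to 6.95 FPKM) were among the lower-level loci and stood at −0.23, −0.46 and −0.41. rpoA, which belongs to a ribosomal protein unit, was at −0.28 (303.47 to 250.62 FPKM). accD, for a subunit of acetyl-CoA carboxylase, was at −0.41 (5.44 to 3.86 FPKM) and clpP, for a protease subunit, which both polymerases can read, was at −0.32 (232.27 to 185.36 FPKM). matK, for an intron splicing factor, was at −0.47 (65.44 to 47.14 FPKM), and the largest plastid gene by span, ycf2, had 2.98 and 2.25 FPKM in its first copy (−0.29). In the class of other proteins, ycf4 was the lowest and the ycf1 fragment of the inverted repeat the highest (−0.13, 79.72 to 73.02 FPKM), and ycf1 itself had the highest level (408.24 to 359.05 FPKM).

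All 8 ribosomal RNA loci had a log2 ratio below 0, and 6 were lower by at least 1.2-fold. The 23S RNA, core of the large subunit, stood at 2547.56 and 1696.12 FPKM in its first copy and at 3097.54 and 2058.67 FPKM in its second, a log2 ratio of −0.59 in both. The 16S RNA was at −0.41 and −0.43, and the 4.5S RNA, short of 1.2-fold, at −0.25 in both copies. The 5S RNA stood at 11.58 and 8.49 FPKM in its first copy and at 15.22 and 11.6 FPKM in its second, and the counting intervals of the FPKM ratio held 1 for both (0.4996 to 1.07 and 0.549 to 1.06). The 23S copies alone held 37.0% of plastid fragments in WT and 31.4% in bbx4-1. The log2 ratios of transfer RNA loci covered a wide range, from −0.56 for trnQ (5.11 to 3.16 FPKM) to 0.77 for trnG (ATCG00310, 9.86 to 17.55 FPKM). Of the 37, 15 were lower and 4 higher by at least 1.2-fold. The 4 higher ones were trnG, trnfM (35.39 to 48.59 FPKM), which neighbours it, and 2 trnL loci, ATCG00880 (2.31 to 3.91 FPKM) and ATCG01030 (2.81 to 4.08 FPKM). The counting interval of the FPKM ratio left out 1 for trnG (1.15 to 2.79) and trnfM (1.09 to 1.74), and held it for both trnL loci (0.702 to 4.36 and 0.633 to 3.47). The other loci above 0 were trnL of the large single-copy region (ATCG00400, 2925.23 to 3023.71 FPKM, 0.048), trnS and trnP named above, trnY (0.014, and below 0 after rescaling the columns) and the second copy of trnV (0.061). trnT (ATCG00390) had the highest level of the class (3140.55 to 2834.05 FPKM, −0.15). Most of these genes are shorter than 100 bases, and fragments on them were counted by the authors under rules not given in the sources used here.

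Over 54 protein-coding members of 13 units, the median absolute difference in log2 ratio was 0.111 for 121 pairs within a unit and 0.237 for 1310 pairs across units. The rpl23 unit supplied 55 of the 121 pairs, and without it the medians were 0.159 for 66 pairs within and 0.219 for 837 pairs across the other 12 units, an alternative chosen after seeing the data. Members of a unit share a precursor RNA, and often a product class. Differences inside a unit also occurred. In the atpI unit the log2 ratio was −0.36 for the first gene, atpI, and −0.68, −0.74 and −0.78 for atpH, atpF and atpA behind it. The counting interval of the FPKM ratio of atpI (0.729 to 0.822) lay above those of the other three, which overlapped each other (0.573 to 0.674, 0.557 to 0.636 and 0.538 to 0.608). In the psaA unit, psaA and psaB were further below 0 than rps14 at the 3′ end (−0.34, 268.34 to 211.29 FPKM). In the ndhH unit, ndhH (−0.27) and ndhA (−0.40) at the 5′ end and ndhD (−0.37) at the 3′ end were less far below 0 than ndhI, ndhG (−0.59), ndhE (−0.51) and psaC between them.

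In the psbB unit, psbB, psbH, petB and petD (−0.58) lay close together. psbT, a small photosystem II subunit, was at −0.22 (55.74 to 47.61 FPKM), with an FPKM ratio of 0.854 (0.716 to 1.02) that its counting interval does not separate from 1. psbN, on the opposite strand of that unit, was at −0.81 (34.47 to 19.18 FPKM), and without knowledge of strand its reads cannot be told apart from those of the psbB precursor. In the psbE unit, psbL and psbJ were at −0.58 and −0.47. The long rpl23 unit ran from −0.28 (rps3, 1341.53 to 1103.79 FPKM) to −0.022 (rpl14), with counting intervals of the FPKM ratio that lay apart (0.811 to 0.834 and 0.970 to 1.00). Its levels in WT ran from 303.47 FPKM (rpoA) to 3061.84 FPKM (rpl16). In the psaJ unit, rpl33 (−0.35) and rps18 (−0.35) were below psaJ, and in the psbK unit psbK (−0.37, 200.19 to 154.3 FPKM) was below psbI. The psbD unit ended with psbZ at −0.31 (433.93 to 349.15 FPKM), and the ndhC unit ran from −0.28 (ndhC) to −0.23 (ndhJ). In the psaI unit, cemA, an envelope protein, was at −0.46 (69.33 to 50.22 FPKM).

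**Figure D4:**
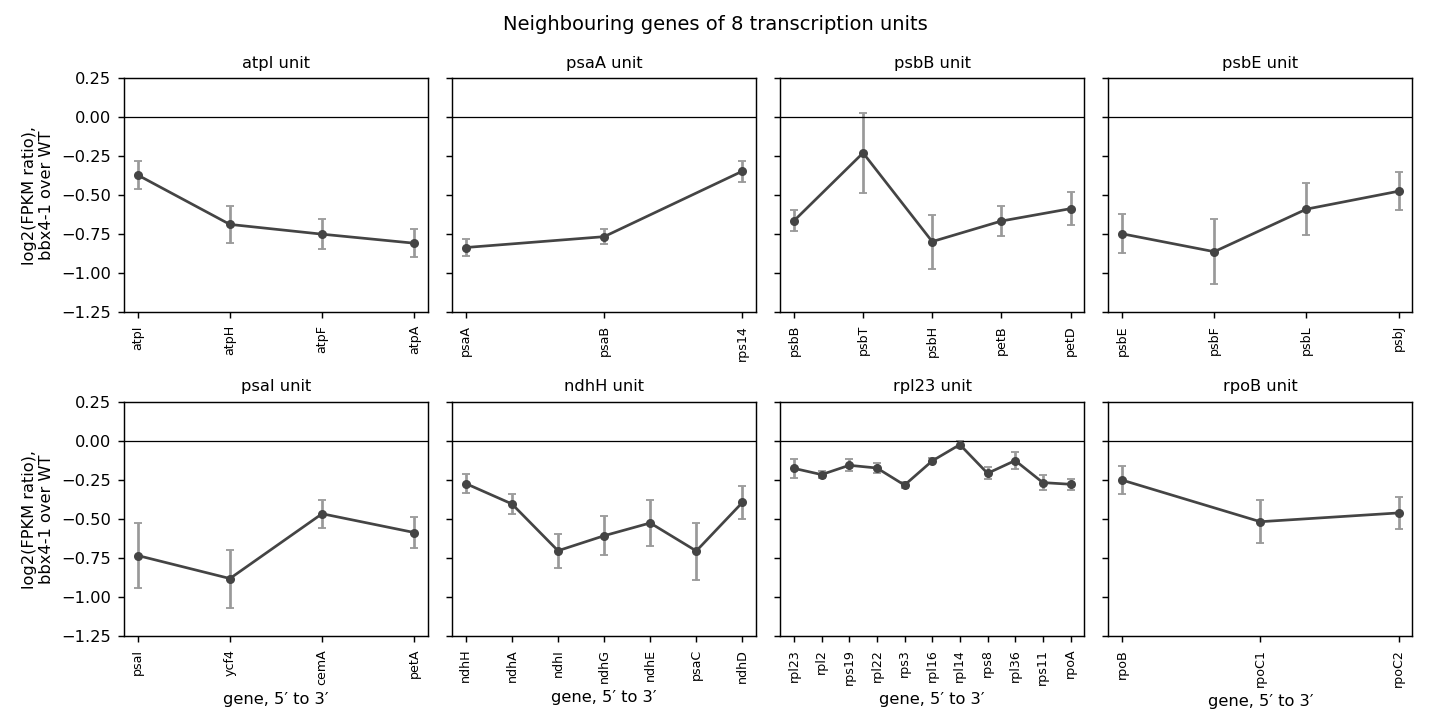
log2 of the FPKM ratio, bbx4-1 over WT, without a pseudocount (y axis), for the genes of 8 transcription units from the 5′ to the 3′ end (x axis). Bars are approximate 95% counting intervals and hold no variation between seedlings. Most genes of the photosynthesis units lie below −0.5, and the rpl23 unit lies between −0.3 and 0.

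Of the 19 pairs of loci in the inverted repeat, 15 are identical in sequence over the annotated gene. Identical copies cannot be told apart by reads within them, and the authors treated such reads by a rule not given in the sources used here. For the 10 identical pairs with a mean WT level of at least 10 FPKM, the second copy stood at 0.595 to 1.39 times the first in WT. Their log2 ratios differed between copies by a median of 0.024 and by at most 0.24 (trnA, −0.26 and −0.50). rpl2 was at −0.214 and −0.215 (888.81 to 766.06 and 773.6 to 666.53 FPKM), and ndhB was at −0.45 and −0.42. Over all 15 identical pairs the largest difference was 0.94, for trnL (ATCG00880 and ATCG01260), whose 4 values were all under 4 FPKM. The 2 copies are not independent measurements.

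Among 83 protein-coding loci with an annotation entry, the log2 ratio was higher at higher levels (Spearman's rho 0.58 with log10 of the mean FPKM) and at a higher share of A in the sense strand of the gene (rho 0.55). Over all 127 loci with an entry, transfer and ribosomal RNA included, rho was 0.20 with the level and 0.14 with the share of A. These are descriptions across loci that share both columns and, in the inverted repeat, the same sequence. The share of A also differed by product class. Its median was 25.0% for photosystem II, 26.7% for photosystem I, 28.7% for cytochrome b6f and 29.4% for the NDH complex. It was 30.7% for ATP synthase, 32.6% for RNA polymerase and 35.5% for ribosomal proteins. ATP synthase had a higher share than the NDH complex but a lower median log2 ratio (−0.521 against −0.385). Within the 33 photosynthesis genes rho with the share of A was 0.02, within 23 ribosomal protein loci 0.50, and within 12 NDH genes −0.01. The parts of base composition and of level in the class differences were not tested.

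**Figure D5:**
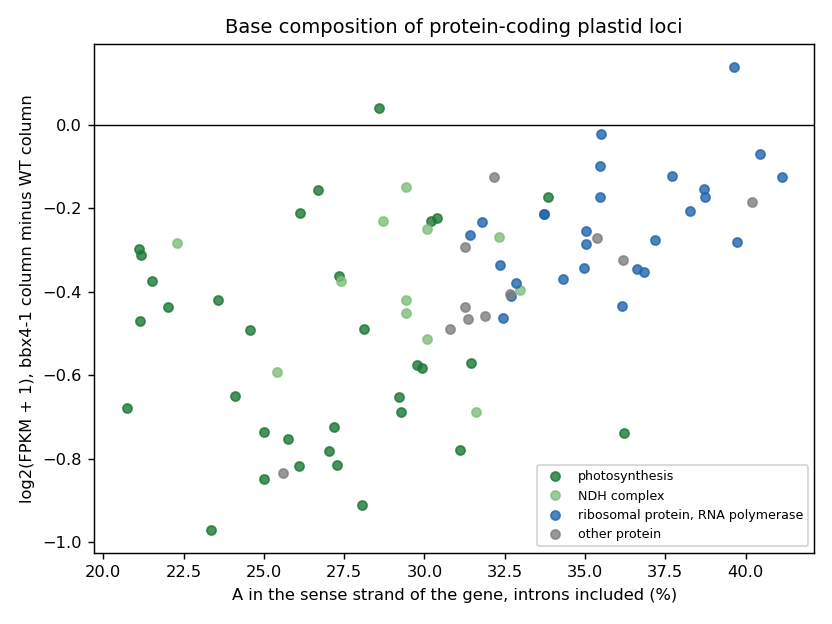
Difference in log2(FPKM + 1), bbx4-1 column minus WT column (y axis), against the percentage of A in the sense strand of the gene with introns (x axis) for protein-coding plastid loci, 1 point per locus, coloured by product group. Ribosomal protein and polymerase genes lie mostly to the right and higher. Photosynthesis genes lie mostly to the left, except for some such as atpF and atpE, and spread over nearly the whole range of the difference.

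The bacterial-type plastid polymerase recognises a promoter with the boxes TTGACA and TATAAT or TATACT. The windows searched end at the annotated start of the gene, which for protein-coding genes is the start codon and not the start of the transcript. In the 250 bases before the gene, TTGACA was found on either strand for 23 of 127 loci (18.1%), TATAAT for 49 (38.6%) and TATACT for 18 (14.2%), and 1 window can hold several of them. The shares in other windows of this length were not counted. Whether these shares exceed those from base composition alone was therefore not tested. Loci with TTGACA had a median log2 ratio of −0.21 and those without it −0.36, those with TATAAT −0.27 against −0.36, and those with TATACT −0.30 against −0.34. A TTGACA followed on the sense strand by TATAAT or TATACT after 15 to 19 bases was found for 2 loci (1.57%), psbA and trnK. The 2 stretches are shown because psbA had the lowest log2 ratio and trnK (841.84 to 786.08 FPKM, −0.099) one near 0, with the boxes in capitals (RefSeq, TAIR10.1, minus strand, Pltd:1530-1559 and Pltd:4458-4486).

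psbA: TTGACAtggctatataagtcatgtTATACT

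trnK: TTGACAacagtgtatggaccaaaTATAAT

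The pairs begin 115 and 139 bases before the gene and have spacers of 18 and 17 bases. The second box is TATACT for psbA and TATAAT for trnK. Such a pair was present before a gene far below 0 and before one near 0. The pair before trnK also lies before matK, inside the trnK intron on the same strand, which was at −0.465 (65.44 to 47.14 FPKM). The absence of these letters elsewhere says nothing about binding.

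Nuclear genes for the same complexes had log2 ratios near 0. Of 14 nuclear partner subunits, none was lower or higher by 1.2-fold, against 3.58% and 5.18% of nuclear loci, with a median of −0.019 and a range from −0.11 (RBCS1B) to 0.093 (PSBR). Against rbcL at −0.91, the Rubisco small subunit genes RBCS1A, RBCS2B and RBCS3B were at −0.038, −0.030 and −0.018, values that are uncertain for single members because the copies are nearly identical. PSBO1, of the oxygen-evolving complex, was at 0.022 and PSAD-1, of photosystem I, at 0.004. The 12 nuclear genes for proteins attached to the plastid polymerase were all above 0, as were 59.5% of nuclear loci, and none passed 1.2-fold. Their median was 0.101 against 0.029 for nuclear loci, PTAC12 (HEMERA) at 0.13 and FSD3 at 0.20. Among 8 genes for sigma factors and phage-type polymerases, 5 were above 0 and 3 below, with a median of 0.066. SIGE (SIG5), at 0.32 (28.59 to 35.91 FPKM), was the only 1 higher by 1.2-fold, and none was lower by that fold. The lowest were AT5G15700 at −0.134 (2.26 to 1.97 FPKM) and SIGA at −0.125 (74.57 to 68.31 FPKM). The 5 plastid RNA decay genes had a median of −0.001, with CSP41A the lowest at −0.15.

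Mitochondrial transcripts, and part of the nuclear ribosomal RNA loci, were lower as well. Of 36 mitochondrial loci with a mean of at least 1 FPKM, 25 were lower by at least 1.2-fold, with a median of −0.38 against −0.34 for plastid loci and 0.029 for nuclear loci. Of the 4 nuclear ribosomal RNA loci, AT2G01010 (193.9 to 125.18 FPKM, −0.63) and AT3G41768 (−0.46) were lower, AT2G01020 was nearly equal (234.21 and 234.17 FPKM) and AT3G41979 was higher (0.33). The part in the plastid differences of how much RNA without a tail was carried through poly(A) enrichment was not tested.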

How the data were processed

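Messenger RNA of whole seedlings was measured in 6 samples, 3 per genotype, grouped by the labels' titles. The authors deposited 1 column of FPKM per genotype, combined from 3 replicates per the design text. HISAT2 2.1.0, edgeR 3.0.8 and the build TAIR10 stand in the submitters' processing notes, without their roles. Poly(A) enrichment is named in the labels' protocols. The counting rules, gene lengths, strand setting and filters were not found in the sources at hand. FPKM were used as deposited, as log2(FPKM + 1), with loci of mean FPKM of at least 1 kept and 1.2-fold as the threshold for counting. Fragments were approximated as FPKM times exon length (TAIR10.1) over the median product for transfer RNA genes of at most 75 bp that hold a single fragment (20 genes for WT, 18 for bbx4-1). Intervals of FPKM ratios are Clopper-Pearson at 95%, and PCR copies could not be removed from them. The interval of the plastid median is a binomial order-statistic interval over loci, which treats linked loci as independent. Symbols for locus identifiers were written by hand from the general locus nomenclature. Coordinates, lengths and sequences come from the RefSeq plastid entries of TAIR10.1, paired with the identifiers in genome order after the check of symbols given above. The functions were tested on simulated data. The A-run and base-composition windows were chosen after values were seen. Python 3.11.15, numpy 2.4.6, pandas 2.3.3 and scipy 1.17.1 were used. The members, lists and tests were chosen with earlier results of these data known. The plastid genes named are the extremes of each product class by level and log2 ratio, the 10 highest levels, the 10 lowest and 10 highest log2 ratios, all loci above 0, members of 14 transcription units and copies in the inverted repeat. accD, clpP, matK, ycf2, ycf3 and trnK lie partly outside this rule and were chosen for their role or promoter after their values were seen.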

Additional observations from a re-analysis of the deposited data

How the results depend on the processing

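No paired analysis was possible because each genotype has 1 combined column, and no replicate could be left out for the same reason. The median log2 ratio of plastid loci was −0.335 in the main setting and stayed below 0 in the others, from −0.366 to −0.285. The others were pseudocounts of 0.1 and 5, no filter, a filter at mean FPKM 5 and 3 rescalings. The second repeat copy, or the ribosomal and transfer RNA, was also left out. These values lay within its 95% order-statistic interval, a spread over loci of 1 pair of columns, not over replicates. Without a filter the value could not change, because all 133 plastid loci pass the filter at mean FPKM 1. Of 97 class medians recomputed in these ways, none was above 0. Many of these values could not change. Examples are all classes without a filter, and the protein classes with ribosomal and transfer RNA left out. The 3 rescalings moved log2 ratios by only about −0.019 to −0.032. rbcL, the single locus of its class, left its counting interval at −0.94 with the nuclear median set to 0. Plastid loci lower by the threshold numbered 20 at 1.5-fold and 0 at 2-fold. After each of the 3 rescalings 10 plastid loci, not 11, were above 0. The plastid median was above the mitochondrial one by 0.049 (log2). The difference reversed its sign to −0.086 at a pseudocount of 5 and to −0.232 without a filter. It was 0.095 at a pseudocount of 0.1 and 0.175 with a filter at mean FPKM 5. The filter at mean FPKM 1 kept 36 of 146 mitochondrial loci, with a median of 3.935 FPKM in WT. The cause of the reversal was not tested. The plastid share of FPKM in WT and bbx4-1 was 8.80% and 8.18% without ribosomal RNA loci, 8.23% and 7.47% without transfer RNA loci, 8.65% and 8.01% without the second repeat copy, and 3.59% and 2.81% as FPKM times length. Depth limits the 11 transfer RNA loci with a mean under 10 FPKM, whose counting intervals all hold a ratio of 1.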

Other observations

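By region, the 83 loci of the large single-copy region had a median log2 ratio of −0.36, the 12 of the small single-copy region −0.39, and the first and second inverted repeat copies −0.25 and −0.29 over 19 loci each. The summed FPKM of the small single-copy region was higher in the bbx4-1 column (log2 of the sums 0.116), and rpl32 lies there. By strand, the 51 loci on the plus strand had a median of −0.36 and the 76 on the minus strand −0.28.

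By level, the 11 plastid loci with a mean of at least 1000 FPKM had a median log2 ratio of −0.15, the 51 between 100 and 1000 FPKM −0.28, the 52 between 10 and 100 FPKM −0.41, and the 19 below 10 FPKM −0.29. By exon length, the 61 loci over 300 bases were all below 0, with a median of −0.40, whereas 9 of the 39 loci up to 100 bases were above 0. The 5 pairs of overlapping plastid genes in the annotation, among them matK inside the trnK intron (1515 bases) and psbD with psbC (53 bases), may share fragments.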
